A study of Homo sapiens with 6 samples.

Results

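The proteasome genes described here are the measured genes whose symbol begins with PSMA, PSMB, PSMC, PSMD, PSME, PSMF or PSMG followed by a digit, with pseudogenes left out. The rule found 47 genes among the 18404 genes tested, and each was represented by its probe set with the highest mean signal. Of these, 45 encode proteasome subunits, assembly chaperones, activators or an inhibitor. The other 2, PSMC3IP and PSME3IP1, carry a matching symbol but encode proteins that are not parts of the proteasome, and they are given apart. PSMC5, PSMD7 and PSMD13 were not analysed here.

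Total RNA was taken 72 hours after lentiviral knockdown in HaCaT, an established line of immortalized human keratinocytes. One group of 3 arrays received the control shRNA (shControl), and the other group of 3 arrays received an shRNA against TP63 (shTP63), a transcription factor of the squamous epithelium. All 6 samples therefore shared the line, the viral delivery and the time point, and how many hairpins were used is not given in the sources used here. Nothing in the labels states that the replicates came from separate cultures, so p-values measure the spread between these arrays, which may be technical. The transcript of TP63 was not analysed here. Its knockdown is unchecked for that reason, and every direction below rests on the labels.

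The proteasome degrades proteins that carry a ubiquitin tag. Its core is a barrel of stacked alpha and beta rings with the protease sites inside, and a regulatory cap binds the tagged protein, removes the tag and unfolds the chain with a ring of ATPases. Interferons induce PSMB8, PSMB9 and PSMB10, which replace the standard protease subunits to form the immunoproteasome, and the PA28 activator made of PSME1 and PSME2, and this form is known for making peptides that class I molecules display.

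The keratinocyte label matched its markers. All 10 measured of 12 keratinocyte markers were above the background level, the 95th percentile over 340 genes for olfactory receptors. Their mean log2 intensity was 12.47 to 12.51 on the shControl arrays and 12.34 to 12.36 on the shTP63 arrays. Of these, 2 were higher and 5 were lower in shTP63, among them KRT5, which fell by 0.50 (limma adjusted p = 4.25e-05), and KRT14, which fell by 0.35 (limma adjusted p = 0.000376). The 11 measured immune markers averaged 6.02 to 6.14 and 6.15 to 6.18, with 7 at background in both groups, 1 higher (CD14, difference 0.70) and the leukocyte marker PTPRC at 4.31 against 4.27 (limma adjusted p = 0.515). The 8 fibroblast markers averaged 6.96 to 7.05 and 7.03 to 7.11, with 3 at background in both groups, 1 higher (COL1A1) and 1 lower (DCN, itself at background and not called in 5 of 14 alternatives). The 5 measured melanocyte markers averaged 6.58 to 6.61 and 6.64 to 6.65, with 2 at background and 1 higher (PMEL). The part of the lower keratinocyte markers in the results below was not tested.

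Promoter letters are shown first because 4 of the 5 immunoproteasome and PA28 genes share the same 10 letters. In the RefSeq table (GRCh38.p14), 39 of the 45 genes had a window of 300 bases, from 250 before to 50 after an annotated start. The interferon-stimulated response element (ISRE), searched on both strands as GAAANNGAAA, was found for 7 of the 39 genes (17.9%), against 4.38% of 27305 genes with a window. The exact letters most common among these matches, GAAAGCGAAA, were found for 5 of the 39, against 0.125% of all genes, and these 5 were PSMB8, PSMB10, PSME1, PSME2 and the chaperone gene PSMG4. This form was picked from the members' own matches, so its excess over all genes is partly fixed by that choice. Each is shown 5′ to 3′ with 10 bases on either side and the match in capitals, on the strand that carries the match: PSMB8 on the + strand at chr6:32844032-32844061, PSMB10 on the - strand at chr16:67936852-67936881, PSME1 on the - strand at chr14:24136189-24136218, PSME2 on the - strand at chr14:24146619-24146648 and PSMG4 on the + strand at chr6:3258904-3258933.
PSMB8: aggaggaagtGAAAGCGAAAgccacagatc
PSMB10: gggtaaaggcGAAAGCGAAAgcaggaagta
PSME1: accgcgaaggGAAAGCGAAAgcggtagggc
PSME2: cctggggagtGAAAGCGAAAgcccgggcga
PSMG4: ttccggggccGAAAGCGAAAgcgcgctcgg
The remaining 2 genes with the looser pattern were PSMA4 and PSMB4 of the standard core. The PSMB8 match spans an annotated start of that gene, beginning 4 bases before it, and the PSME1 match begins at base 6 after the start. Both lie on the strand opposite the gene.

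PSMB9 had no ISRE match in its window. Its 250 bases before the start are shown because PSMB9 and TAP1, which encodes a subunit of the peptide transporter of class I presentation, are divergent neighbours, 487 bases apart in GRCh38.p14, and because the pair moved in opposite directions (below). The window lies on the + strand at chr6:32853942-32854191, and the capitals mark GC boxes (GGGCGG).
PSMB9: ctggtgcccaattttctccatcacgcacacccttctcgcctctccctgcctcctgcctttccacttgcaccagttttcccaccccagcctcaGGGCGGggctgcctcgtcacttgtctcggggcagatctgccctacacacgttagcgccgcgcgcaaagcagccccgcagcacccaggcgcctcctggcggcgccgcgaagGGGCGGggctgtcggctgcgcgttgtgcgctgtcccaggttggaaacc

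The antioxidant response element core (ARE, TGACNNNGC), bound by the NFE2L factors treated further on, was found for 14 of the 39 genes (35.9%) against 16.1% of all genes. It is shown for the assembly chaperone genes that hold it, with the match in capitals on the gene's own strand: PSMG1 at chr21:39183616-39183644 (- strand), PSMG2 at chr18:12658689-12658717 (+ strand), PSMD5 at chr9:120843038-120843066 (- strand) and PSMD9 at chr12:121888678-121888706 (+ strand). PSMD9 held a further match on the opposite strand.
PSMG1: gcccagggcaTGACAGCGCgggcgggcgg
PSMG2: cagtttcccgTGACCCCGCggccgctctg
PSMD5: tggctacagtTGACACGGCcctaacggag
PSMD9: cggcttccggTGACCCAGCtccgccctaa
The ARE was also found for PSMB3, PSMB9 and PSME1, which were lower in shTP63. It was found too for PSMA4, PSMC4, PSMD1, PSMD3, PSMD12, PSME2 and PSME4, which were not called. Genes with a match were lower in shTP63 in 7 of 14 cases for the ARE and in 3 of 7 cases for the ISRE. Those without a match were lower in 13 of 25 and 17 of 32 cases. Of the other patterns searched on both strands, the ETS core CCGGAAG was found for 33.3% of the 39 genes against 12.2% of all genes, the GC box GGGCGG for 66.7% against 48.3%, CCAAT for 46.2% against 39.7%, the GAS pattern TTCNNNGAA for 20.5% against 9.38% and the C/EBP pattern TTNNGNAA for 20.5% against 41.8%. The p53 family motif was found for PSMA2 and PSMB10 (5.13% against 8.06%), and the NF-kappa-B motif and the cAMP response element TGACGTCA were found for 0 of the 39 genes, against 1.71% and 2.25% of all genes. The exact ISRE letters are contained in the looser ISRE pattern. A match is a description of letters and does not show binding.

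About as many proteasome genes were lower in shTP63 as did not pass the test, by small amounts, and none was higher. At a limma adjusted p under 0.05, with Benjamini-Hochberg adjustment over all genes, 23 of the 45 components fell (51.1%), 0 rose and 22 were not called, against 25.1% of all genes lower and 16.4% higher. The median difference, shTP63 minus shControl on the log2 scale, was -0.13 over the 45 components and -0.01 over all genes, and single components ranged from -0.50 to 0.06. In 30 of 45 components all 3 shTP63 arrays lay below all 3 shControl arrays, against 30.4% of all genes, and in 0 they lay above (20.9% of all genes). In the brightest of 5 bins of mean level, which holds most components, 44.0% of all genes were lower and 52.2% did not overlap in this way. No component changed by 2-fold or more. These are bulk RNA samples, so fewer cells of a type and less RNA per cell cannot be told apart.

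Other bright genes were also lower. The components are mostly strongly expressed, with 35 of 45 in the top bin when all genes are cut by mean level into 5 bins of equal size, and the median difference of all genes in that bin was -0.10. Of the 35 components in it, 18 were lower (51.4%, near the 44.0% of the bin) and 23 did not overlap (65.7%), and of the 10 in dimmer bins, 5 were lower. A difference below 0 was found for 43 of the 45 components, against 53.3% of all genes and 62.3% of those in the brightest bin. The exceptions were PSMD1 and PSMD2 of the cap.

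The fall was uneven by role. Assembly chaperones within the symbol rule were lower in 6 of 7 cases (85.7%) with a median difference of -0.30. The immunoproteasome and PA28 genes were lower in 4 of 5 (80.0%) with a median of -0.21. The standard core was lower in 6 of 14 (42.9%) with a median of -0.12 and the base ATPases in 2 of 5 with a median of -0.10, which is close to the 44.0% of the brightest bin. The non-ATPase cap subunits were lower in 3 of 9 (33.3%) with a median of -0.03, and the other activators and the inhibitor in 2 of 3 (66.7%) with a median of -0.15. With groups this small the roles were not tested against each other. Calls in 14 of the 23 lower components, among them every lower chaperone gene, held in each of 15 alternative analyses. The other 9 were lost in at least 1 of them: PSMA2, PSMB1, PSMB2, PSMB3, PSMC1, PSMC6, PSMD14, PSMB8 and PSME3. The alternative that takes the mean of all probe sets could not change the values of components with 1 probe set, all except PSMC6.

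**Figure D1:**
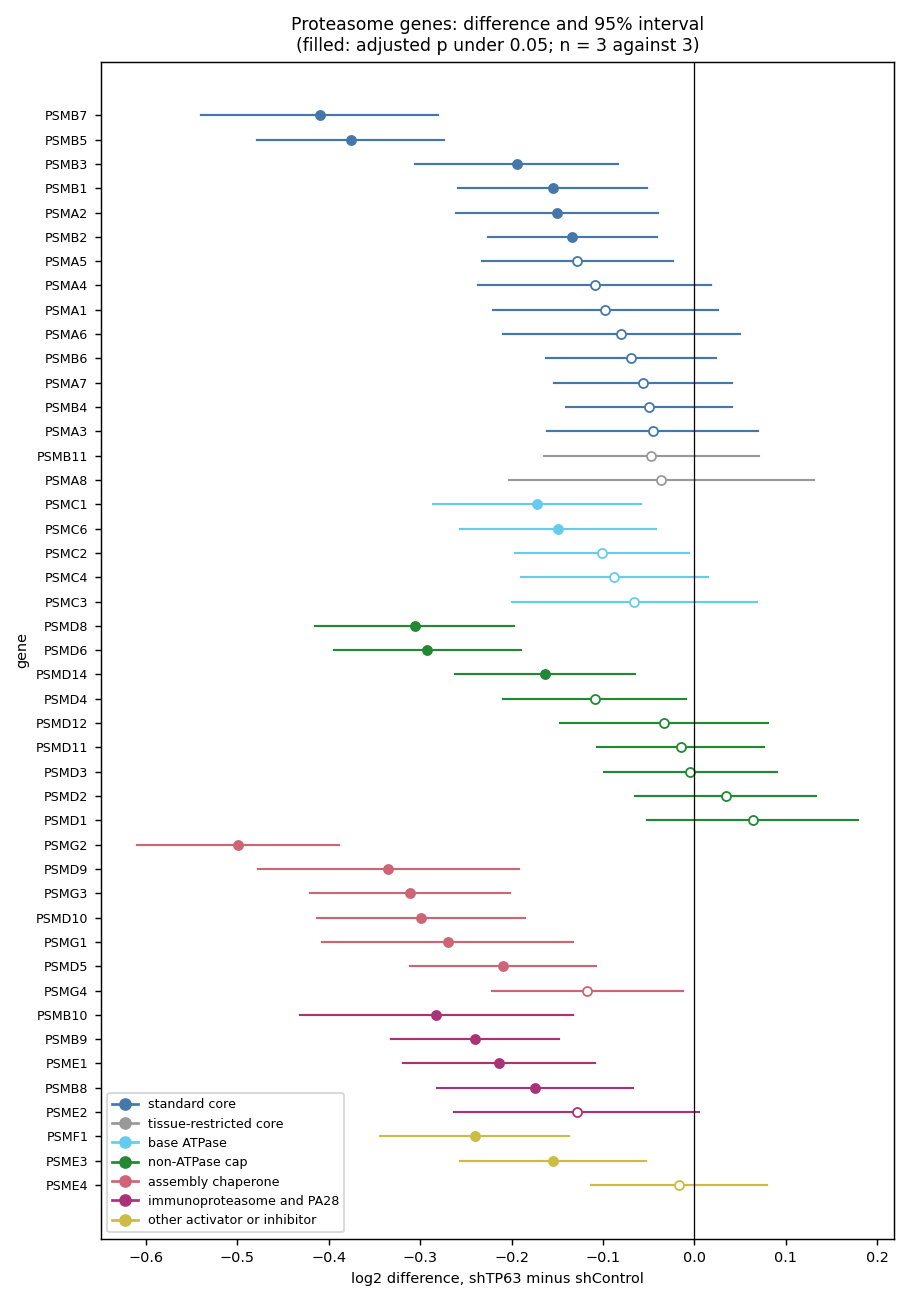
Difference between shTP63 and shControl (log2, horizontal axis) for each of the 45 proteasome components, grouped by role (colour), with bars for the 95% interval of the fit and 3 arrays per group. Filled points passed a limma adjusted p under 0.05. All 23 filled points lie below 0, from PSMG2 at -0.50 upward, and the cap subunits PSMD1 and PSMD2 are the only points above 0.

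**Figure D2:**
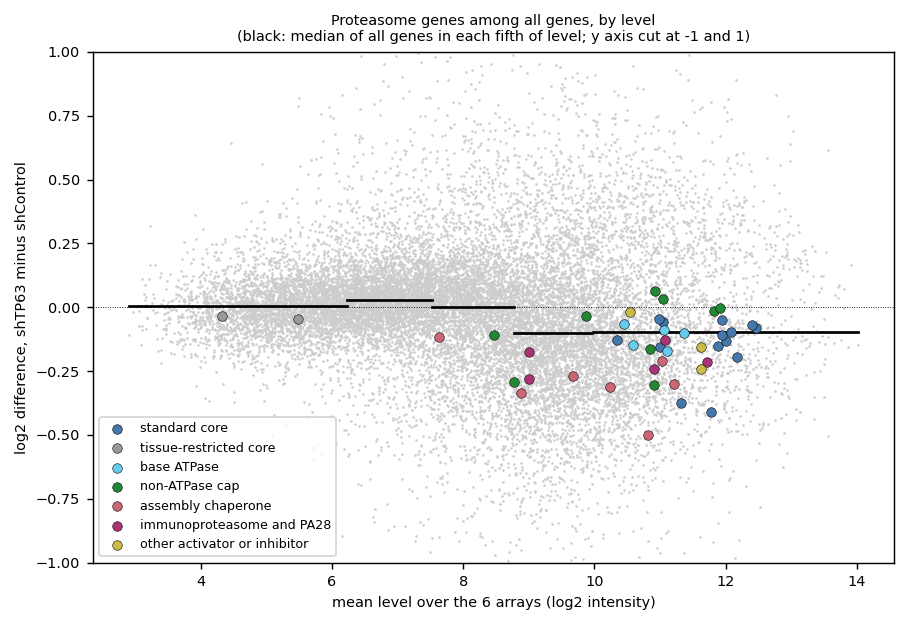
Difference between shTP63 and shControl (log2, vertical axis, cut at -1 and 1) against mean level over the 6 arrays (log2 intensity, horizontal axis) for 18404 genes (grey), with the proteasome components coloured by role. Black lines mark the median of all genes in each of 5 level bins, which is -0.10 in the brightest. The standard core lies around that line, and most assembly chaperones lie below it.

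The standard core was high on every array and moved little apart from 2 of its protease subunits. The alpha ring genes PSMA1 to PSMA7, whose products form the outer rings and the gate, ranged in difference from -0.15 to -0.05, and PSMA2 alone passed the test. PSMA2 had 11.93, 12.02 and 11.92 on the shControl arrays and 11.86, 11.80 and 11.76 on the shTP63 arrays, a difference of -0.15 ± 0.049 (SE, limma adjusted p = 0.0343). The shTP63 arrays all lay below the shControl arrays by a narrow gap, and the call was lost under 8 of the 15 alternatives, with a difference of -0.08 and an adjusted p of 0.183 after cyclic loess. PSMA5 also had no overlap between groups but missed the threshold (difference -0.13, limma adjusted p = 0.052), and PSMA1, PSMA3, PSMA4, PSMA6 and PSMA7 had adjusted p-values of 0.159 to 0.524.

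Among the beta ring genes, the chymotrypsin-like subunit PSMB5 and the trypsin-like subunit PSMB7 fell most. PSMB5 had log2 intensities of 11.47, 11.54 and 11.53 in shControl and 11.12, 11.11 and 11.19 in shTP63. Its means were 11.51 ± 0.035 and 11.14 ± 0.046 (SD, n = 3), and the change was -0.38 ± 0.045 (SE), or 1.3-fold lower (limma adjusted p = 0.000187). PSMB7 had 11.97, 11.99 and 12.01 in shControl and 11.67, 11.47 and 11.60 in shTP63. Its means were 11.99 ± 0.024 and 11.58 ± 0.104 (SD, n = 3), and the change was -0.41 ± 0.057 (SE), or 1.33-fold lower (limma adjusted p = 0.000415). In both genes the groups were separated by more than the spread within either.

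PSMB6, the caspase-like subunit and the remaining protease of the core, did not pass. It had 12.44 on each of the 3 shControl arrays and 12.39, 12.38 and 12.34 on the shTP63 arrays. The groups did not overlap, but the difference of -0.07 had a 95% interval of -0.16 to 0.02 (limma adjusted p = 0.217). PSMB3, a structural beta subunit, had 12.24, 12.24 and 12.31 against 12.11, 12.00 and 12.11, a difference of -0.19 ± 0.049 (SE, limma adjusted p = 0.0108). With cyclic loess scaling it no longer passed (-0.13, adjusted p = 0.0681). PSMB1 and PSMB2, also structural, differed by -0.16 and -0.13 (limma adjusted p = 0.0224 and 0.0271) and lost their calls under 7 and 9 of the 15 alternatives, and PSMB4 differed by -0.05 (limma adjusted p = 0.369).

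PSMA8, the testis form of an alpha subunit, and PSMB11, the thymus form of a protease subunit, were at background. PSMA8 had 4.21, 4.41 and 4.41 in shControl and 4.37, 4.38 and 4.18 in shTP63, and PSMB11 had 5.50, 5.53 and 5.48 against 5.37, 5.54 and 5.46. The groups overlapped in both.

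The ring of base ATPases, which unfolds the substrate, gave 2 calls among 5 measured genes, and both were weak. PSMC1 differed by -0.17 ± 0.050 (SE, limma adjusted p = 0.0216), and since RefSeq lists 13 pseudogenes of it, its signal may be shared with them. The same may hold for other components, among them PSME2 with 6 pseudogenes, PSMA6 with 4, and PSMA2, PSMC6 and PSMD10 with 3 each. PSMC6 differed by -0.15 ± 0.047 (SE, limma adjusted p = 0.0314). A second PSMC6 probe set gave -0.21 ± 0.063 (SE), with an adjusted p over all probe sets of 0.0431, against 0.0551 for the brighter one in that fit. Neither gene was called after cyclic loess (PSMC1 -0.10, adjusted p = 0.113, and PSMC6 -0.07, adjusted p = 0.257). PSMC2, PSMC3 and PSMC4 had differences of -0.10, -0.07 and -0.09 (limma adjusted p = 0.086, 0.426 and 0.160).

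The cap's non-ATPase subunits split. The lid subunits PSMD6 and PSMD8 fell clearly: PSMD6 had 8.92, 8.88 and 8.98 in shControl and 8.63, 8.65 and 8.60 in shTP63, a difference of -0.29 ± 0.045 (SE, limma adjusted p = 0.000745). PSMD8 had 11.02, 11.05 and 11.10 against 10.81, 10.70 and 10.74, a difference of -0.31 ± 0.048 (SE, limma adjusted p = 0.000818). In both, every shTP63 array lay below every shControl array. PSMD14, the deubiquitinase that cuts the ubiquitin chain off the substrate, had 10.96, 10.91 and 10.89 against 10.79, 10.77 and 10.72, a difference of -0.16 ± 0.043 (SE, limma adjusted p = 0.0142). Its call was lost in 3 alternatives, with a highest adjusted p of 0.130.

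The large scaffold subunits PSMD1 and PSMD2 differed by 0.06 and 0.03 (limma adjusted p = 0.366 and 0.585). After cyclic loess PSMD1 was the only component called higher, with a difference of 0.14 (limma adjusted p = 0.0472). The ubiquitin receptor PSMD4 differed by -0.11 (limma adjusted p = 0.0787). The lid subunits PSMD3, PSMD11 and PSMD12 differed by -0.00, -0.02 and -0.03 (limma adjusted p = 0.947, 0.807 and 0.645), and the 95% interval for PSMD11 was -0.11 to 0.08.

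The assembly chaperones, which are not part of the finished particle, included the gene with the largest fall, PSMG2. In all 7 every shTP63 array lay below every shControl array. The same held for 30.4% of all genes and 52.2% of those in the brightest bin. PSMG1 and PSMG2 form a pair that starts the alpha ring. PSMG2 had 11.02, 11.10 and 11.06 in shControl and 10.61, 10.58 and 10.49 in shTP63. Its means were 11.06 ± 0.038 and 10.56 ± 0.064 (SD, n = 3), and the change was -0.50 ± 0.049 (SE), or 1.41-fold lower (limma adjusted p = 6.19e-05), the largest fall of the 45. PSMG1 had 9.75, 9.82 and 9.87 against 9.66, 9.52 and 9.45, a difference of -0.27 ± 0.061 (SE, limma adjusted p = 0.00606), with shTP63 replicate 1 close to the lowest shControl array.

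PSMG3 and PSMG4 form the second chaperone pair of the alpha ring. PSMG3 had 10.42, 10.32 and 10.42 in shControl and 10.07, 10.04 and 10.12 in shTP63, a difference of -0.31 ± 0.048 (SE, limma adjusted p = 0.000761). PSMG4, which carries the shared ISRE letters, had 7.70, 7.69 and 7.66 against 7.54, 7.63 and 7.52, a difference of -0.12 ± 0.046 (SE). It missed the threshold (limma adjusted p = 0.0711) and was called lower in 6 of the 15 alternatives.

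PSMD5, PSMD9 and PSMD10 hold ATPase subunits while the base is put together. PSMD9 had 9.07, 9.00 and 9.06 in shControl and 8.67, 8.61 and 8.84 in shTP63, a difference of -0.33 ± 0.063 (SE, limma adjusted p = 0.00233). PSMD10, known as gankyrin, had 11.39, 11.40 and 11.28 against 11.12, 11.02 and 11.04, a difference of -0.30 ± 0.050 (SE, limma adjusted p = 0.00125). PSMD5 had 11.12, 11.17 and 11.09 against 10.92, 10.96 and 10.88, a difference of -0.21 ± 0.045 (SE, limma adjusted p = 0.00479). The 5 measured base ATPases differed by -0.17 to -0.07, and the remaining ATPase, PSMC5, was not analysed here.

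All 3 inducible protease subunits of the immunoproteasome fell. PSMB9 had 11.03, 11.01 and 11.04 in shControl and 10.80, 10.77 and 10.79 in shTP63, with means of 11.03 ± 0.016 and 10.79 ± 0.017 (SD, n = 3). The difference of -0.24 ± 0.040 (SE), or 1.18-fold lower, was many times the spread within groups (limma adjusted p = 0.00123). PSMB10 had 9.07, 9.23 and 9.13 against 8.85, 8.76 and 8.98, a difference of -0.28 ± 0.066 (SE, limma adjusted p = 0.00742), with a wider spread but no overlap.

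PSMB8 had 9.04, 9.06 and 9.16 in shControl and 8.91 on each of the 3 shTP63 arrays, a difference of -0.17 ± 0.047 (SE, limma adjusted p = 0.0154). The gene did not pass without shControl replicate 3, its highest array (-0.14, adjusted p = 0.0672). It also missed the threshold when the arrays were quantile normalized on probe sets with 1 gene (-0.09, adjusted p = 0.140). An antisense gene, PSMB8-AS1, overlaps PSMB8 in RefSeq.

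Of the PA28 genes, PSME1 had 11.85, 11.84 and 11.80 in shControl and 11.67, 11.55 and 11.63 in shTP63, a difference of -0.21 ± 0.046 (SE, limma adjusted p = 0.00504). Its partner PSME2 had 11.12, 11.15 and 11.15 against 11.13, 11.01 and 10.90. There the groups overlapped through shTP63 replicate 1, and the difference of -0.13 had a 95% interval of -0.26 to 0.00 (limma adjusted p = 0.115). The markers of the cells most known for this form of the proteasome, leukocytes, were mostly at background, with PTPRC at 4.31 and 4.27.

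Each inducible subunit was set against the standard subunit it replaces, as the change in their difference within an array, since the levels of 2 probe sets cannot be compared. PSMB8 minus PSMB5 changed by 0.20 ± 0.042 (SE) with no overlap between groups. PSMB9 minus PSMB6 changed the other way, by -0.17 ± 0.022 (SE), also with no overlap. PSMB10 minus PSMB7 changed by 0.13 ± 0.073 (SE), with overlap. In exact two-sided permutation tests the 3 pairs gave p = 0.1, 0.1 and 0.2 (0.15, 0.15 and 0.2 after adjustment over the pairs), and 3 arrays against 3 cannot give a p below 0.1, so none could pass.

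**Figure D3:**
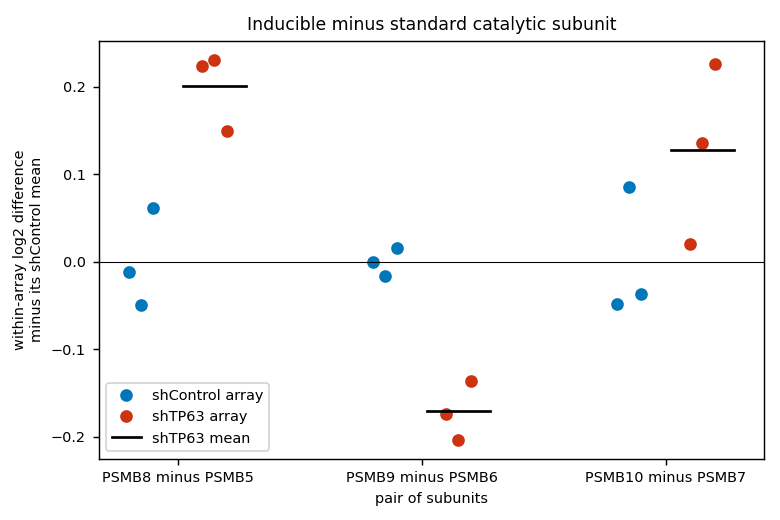
Within-array difference between each inducible protease subunit and the standard subunit it replaces (log2, vertical axis), set to the shControl mean, for 3 shControl and 3 shTP63 arrays (points, with the shTP63 mean as a line). The shTP63 arrays lie above shControl for PSMB8 minus PSMB5 (mean 0.20), below for PSMB9 minus PSMB6 (mean -0.17) and overlap for PSMB10 minus PSMB7 (mean 0.13).

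Most measured genes of class I presentation rose. Of the 21 genes of the list 13 were measured, of which 9 rose, 2 fell and 2 were not called, and the median was 0.29, while 25.3% of all genes in the brightest bin were higher. None of the 13 encodes the heavy chain of a class I molecule, so the counts do not cover those genes. TAP1, the divergent neighbour of PSMB9, had 11.26, 11.22 and 11.30 in shControl and 11.66, 11.72 and 11.80 in shTP63, a difference of 0.47 ± 0.050 (SE), or 1.38-fold higher (limma adjusted p = 0.000102). Every shTP63 array was above every shControl array for TAP1 and below for PSMB9.

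CALR, a chaperone of class I loading, rose by 0.58 ± 0.041 (SE, limma adjusted p = 1.19e-05), and the peptide-trimming peptidase ERAP1 rose by 0.36 ± 0.044 (SE, limma adjusted p = 0.000209). Both falls were cytosolic peptidases, TPP2 with -0.18 (limma adjusted p = 0.00802) and NRDC with -0.12 (limma adjusted p = 0.0476), and after cyclic loess neither was called. NLRC5, the class I transactivator, had a difference of 0.05 (limma adjusted p = 0.502).

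**Figure D4:**
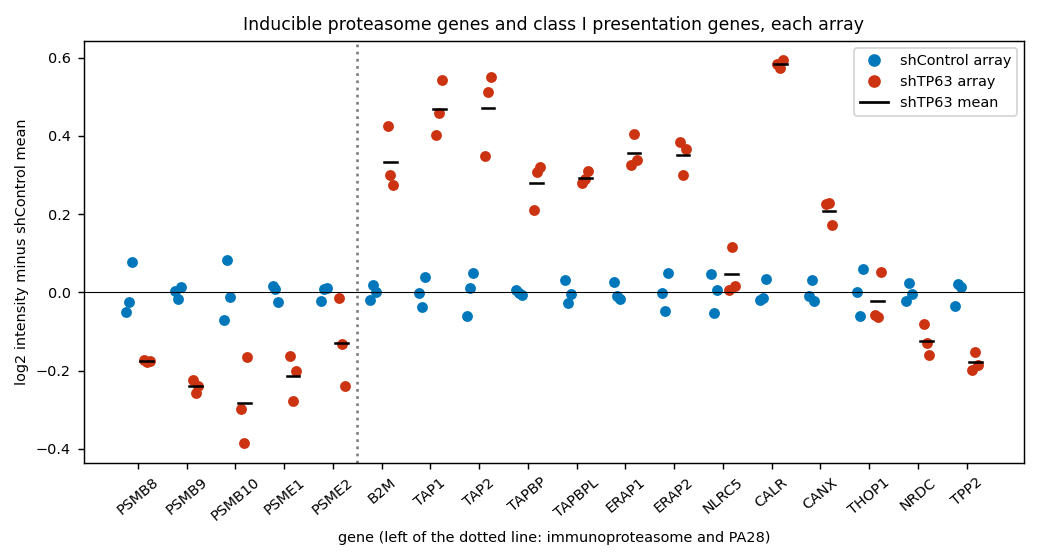
Log2 intensity of each array minus the shControl mean (vertical axis) for the 5 immunoproteasome and PA28 genes (left of the dotted line) and all 13 measured class I presentation genes (right), with 3 shControl and 3 shTP63 arrays (points) and the shTP63 mean (line). The shTP63 means lie below 0 on the left, from -0.28 for PSMB10 to -0.13 for PSME2, and on the right 9 genes rose, up to 0.58 for CALR, while NRDC (-0.12) and TPP2 (-0.18) fell and NLRC5 and THOP1 were not called.

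Interferon signalling genes, many of which act upstream of the inducible subunits, moved both ways. Of 23 measured members, 7 rose, 6 fell and 10 were not called, against 16.4% of all genes higher and 25.1% lower. The median was 0.09, which turned to -0.02 after array median centring and to -0.01 under another quantile normalization. The receptor subunits IFNGR1 and IFNAR2 rose, by 0.69 ± 0.046 (SE, limma adjusted p = 9.39e-06) and 0.33 ± 0.045 (SE, limma adjusted p = 0.000345), and so did IRF9, the DNA-binding subunit of the factor that binds the ISRE, by 0.27 (limma adjusted p = 0.00125). The receptor kinases JAK1 and JAK2 fell by 0.36 and 0.53 on the log2 scale (limma adjusted p = 0.000175 and 0.000384). JAK2 was dim, with a mean of 7.10 in shControl and 6.57 in shTP63, the latter under the background level of 6.76. PTPN2, a phosphatase that acts on JAK1, fell by 0.36 (limma adjusted p = 0.000189).

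IRF1, an activator of immunoproteasome genes, fell with them. It had 10.90, 10.79 and 10.89 in shControl and 10.68, 10.56 and 10.59 in shTP63, a difference of -0.25 ± 0.051 (SE, limma adjusted p = 0.00377), with no overlap. The interferon list therefore shows no single direction, and 4 of its genes were at background by their mean over the 6 arrays.

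Among the other activators and the inhibitor, PSMF1, known as PI31 and first described as an inhibitor of the core, had 11.75, 11.72 and 11.77 in shControl and 11.51, 11.45 and 11.56 in shTP63. The difference of -0.24 ± 0.046 (SE, limma adjusted p = 0.00245) left no overlap. PSME3, the nuclear PA28 gamma, had 11.73, 11.72 and 11.68 against 11.59, 11.57 and 11.50, a difference of -0.15 ± 0.045 (SE, limma adjusted p = 0.0214), and lost its call in 4 alternatives, with a highest adjusted p of 0.157. PSME4, the activator PA200, differed by -0.02 (limma adjusted p = 0.792).

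Proteins that bind or help build the proteasome but carry other symbols were also lower or not called. Of 17 measured partners and chaperones, 8 fell and 0 rose, with a median difference of -0.10, and this share can be set against the 44.0% of the brightest bin. PITHD1, which has a proteasome-interacting domain, had 9.34, 9.27 and 9.40 in shControl and 8.64, 8.71 and 8.57 in shTP63, a difference of -0.69 ± 0.054 (SE), or 1.61-fold lower (limma adjusted p = 1.96e-05). PAAF1, which binds the ATPase ring, fell by 0.45 ± 0.054 (SE, limma adjusted p = 0.000185), and TXNL1, a thioredoxin bound to the cap, fell by 0.32 ± 0.041 (SE, limma adjusted p = 0.000282). The assembly chaperone POMP, which lies outside the symbol rule, was not called (difference -0.09, limma adjusted p = 0.202).

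The transcriptional regulators of proteasome genes moved in opposite directions within 1 family. NFE2L1 raises proteasome gene transcription when proteasome activity is low, NFE2L2 is its stress-responsive relative, and NFE2L3 is a less studied relative. NFE2L1 had 11.72, 11.77 and 11.74 in shControl and 11.41, 11.48 and 11.40 in shTP63, a difference of -0.32 ± 0.044 (SE, limma adjusted p = 0.000414). NFE2L2 had 11.36, 11.43 and 11.37 against 11.05, 10.99 and 10.91, a difference of -0.40 ± 0.050 (SE, limma adjusted p = 0.000233). Neither gene's groups overlapped.

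NFE2L3 rose more than any proteasome component moved. It had 9.22, 9.19 and 9.14 in shControl and 10.85, 10.98 and 11.00 in shTP63, a difference of 1.76 ± 0.053 (SE), or 3.39-fold higher (limma adjusted p = 1.39e-07). Over the whole list of 9 measured regulators, 2 rose, 4 fell and 3 were not called, and the median was -0.12, with 44.0% of all genes in the brightest bin lower. NGLY1, the glycanase that NFE2L1 needs for activity, fell by 0.35 ± 0.046 (SE, limma adjusted p = 0.00029), and KEAP1, the adaptor that sends NFE2L2 to degradation, fell by 0.43 ± 0.057 (SE, limma adjusted p = 0.000337). SYVN1, a ligase of the endoplasmic reticulum, rose by 0.18 ± 0.044 (SE, limma adjusted p = 0.0101), a call lost after array median centring.

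Ubiquitin and related genes also moved both ways, with 2 of 8 measured higher, 3 lower and a median difference of 0.05, or -0.06 after array median centring. These counts are near the shares of all genes in the brightest bin, 25.3% higher and 44.0% lower. UBD, a ubiquitin-like tag that delivers proteins to the proteasome and is inducible by interferon, had 6.90, 6.98 and 7.12 in shControl and 8.20, 7.99 and 8.06 in shTP63, a difference of 1.08 ± 0.072 (SE), or 2.12-fold higher (limma adjusted p = 9.17e-06). HERC5, the ligase for the interferon-induced tag ISG15, rose by 0.46 (limma adjusted p = 0.00125). UBA7 and UBE2L6, the enzymes that activate and carry the same tag, fell by 0.22 and 0.16 (limma adjusted p = 0.003 and 0.0147), and the ubiquitin gene UBB fell by 0.14 (limma adjusted p = 0.0266). The UBE2L6 call was lost under 4 of the 15 alternatives and the UBB call under 6, with highest adjusted p-values of 0.221 and 0.130.

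The 2 genes that match the symbol rule but are not proteasome parts moved apart. PSMC3IP, a meiotic recombination factor, had 7.68, 7.57 and 7.55 in shControl and 7.88, 7.84 and 7.97 in shTP63, a difference of 0.30 ± 0.054 (SE, limma adjusted p = 0.00188). PSME3IP1, which binds PSME3, had 10.49, 10.54 and 10.53 against 10.29, 10.27 and 10.16, a difference of -0.28 ± 0.049 (SE, limma adjusted p = 0.0017).

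Among the shTP63 arrays, replicate 3 was lowest for 26 of the 45 components, replicate 2 for 17 and replicate 1 for 2, against 41.9%, 25.9% and 32.2% of the genes of the brightest bin. Among the shControl arrays, replicate 1 was lowest for 22 of the 45, against 51.7% of the genes of the brightest bin. Leaving out each array in turn gave 17 to 25 components lower. The scaling between arrays mattered more. Before any centring, the median log2 intensity over all 32321 probe sets was 7.44 to 7.47 on the shControl arrays and 7.54 to 7.57 on the shTP63 arrays. Median centring therefore lowered every difference by the same amount and moved the median of all genes from -0.01 to -0.12. It called 41 components lower (91.1%), against 43.1% of all genes and 59.6% of the brightest bin. Cyclic loess called 16 (35.6%), against 23.8% of all genes and 33.9% of the brightest bin. Quantile normalization over probe sets with 1 gene called 17 (37.8%), against 21.3% and 36.5%, and another quantile normalization called 23 (51.1%), against 31.4% and 39.7%. These shares cover all 45 components, also those in dimmer bins. Of the 35 components in the brightest bin, 91.4% were lower after median centring and 28.6% after cyclic loess. Quantile normalization over probe sets with 1 gene gave 34.3% of the 35, and another quantile normalization gave 45.7%. Under cyclic loess and quantile normalization over probe sets with 1 gene the share of the 35 was thus below that of all genes in the bin.

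Of the 6 roles above background, the assembly chaperones had the lowest median and the cap subunits the highest under each of 5 scalings. Assembly chaperones were called lower in 7 of 7 cases under each of the 4 other scalings, with medians from -0.41 to -0.23. The immunoproteasome and PA28 genes were lower in 3 to 5 of 5 cases, with medians from -0.32 to -0.14. The standard core was lower in 2 to 14 of 14 cases and the base ATPases in 0 to 5 of 5, so the calls in these groups depend on how the arrays were scaled. The median of the cap subunits changed sign, from -0.14 after centring to 0.03 after cyclic loess.

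**Figure D5:**
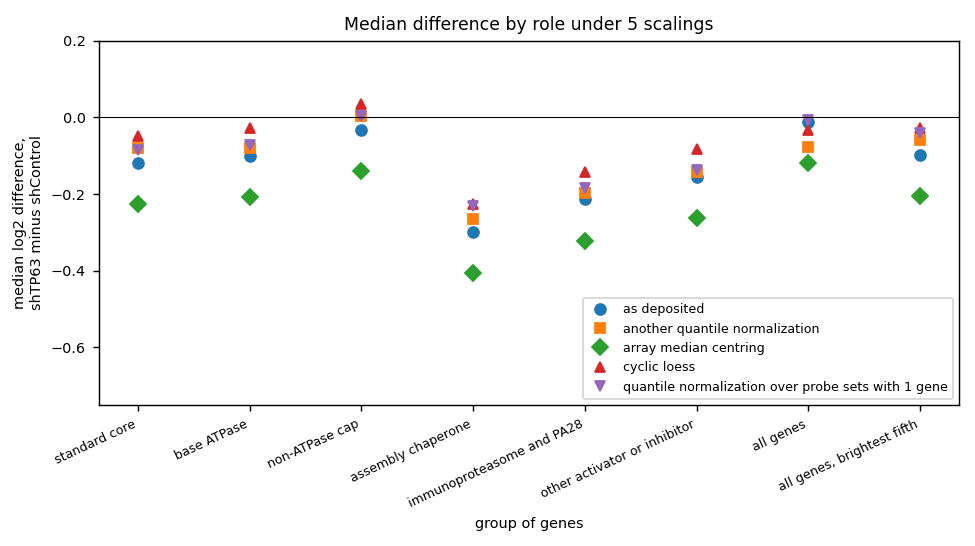
Median difference between shTP63 and shControl (log2, vertical axis) over the genes of each role, over all genes and over the brightest bin of all genes, under 5 ways of scaling the arrays (symbols). The assembly chaperones are lowest under each scaling, from -0.41 to -0.23, and the cap subunits cross 0.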

How the data were processed

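Biotin-labelled RNA of 6 samples, 3 per group, was measured on 1-colour arrays. The deposited values are linear intensities, made with RMA in R 2.15.1 per the submitters' processing notes; annotation and filters are not given in the sources used here. Log2 was taken. Of 32321 probe sets, 19158 had 1 gene symbol, 1388 several and 11775 were unlisted; probe sets with 1 symbol were used, the highest-mean one per gene. The 18404 genes were fitted with limma 3.58.1 (lmFit, eBayes; R 4.3.3) without covariates, two-sided, with Benjamini-Hochberg adjustment, and the script was tested on simulated data. RMA pulls small differences together, and the number of arrays limits precision: the median SE was 0.047 for components and 0.053 for all genes. Pairs were compared with exact permutation tests (scipy 1.17.1). All components could be named, and from each list up to 3 genes per direction with the smallest adjusted p, besides IRF1, NLRC5, NFE2L1, NFE2L2, PTPRC, KRT5 and KRT14. POMP was named in addition, as an assembly chaperone outside the symbol rule. The 9 lists held 124 genes, 104 of them measured. Members and lists were chosen with earlier results of these data known. Alternatives covered the replicate block, scaling, filter, probe set rule, prior, array weights, single arrays and threshold.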

Additional observations from a re-analysis of the deposited data

How the results depend on the processing

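No called difference or pair difference changed sign, but medians of gene groups did: interferon signalling from 0.09 to -0.02 (centring) and -0.01 (another quantile normalization), ubiquitin from 0.05 to -0.06 (centring) and cap subunits from -0.03 to 0.03 (cyclic loess). Array median centring gave 1782 genes higher and 7932 lower, and lower calls for 41 components: 14 core, 1 tissue-restricted, 5 base and 6 cap genes among them; it gave 14 partners lower and 1 regulator higher. Cyclic loess gave 2 core, 0 base, 1 other activator, 0 class I and 1 ubiquitin gene lower, with 1 component higher. Quantile normalization over probe sets with 1 gene gave 3 core, 0 base and 0 class I genes lower, and another quantile normalization gave 1 base and 1 class I gene lower. A threshold of 0.01 left 14 components lower: 2 core, 0 base and 1 other activator, besides 1 class I gene and 1 ubiquitin gene lower and 1 regulator higher. Leaving out each array in turn gave 17 to 25 components, 3 to 7 core, 0 to 2 base, 1 to 2 other activator and 1 to 2 class I genes lower. The counts depended on the array: 25 components, 7 core and 2 base genes were lower without shTP63 replicate 1. Without shTP63 replicate 3 they were 17, 3 and 0. The cause of these changes was not tested. Whether replicate numbers pair the samples is not known. Correlations of deviations were -0.150, -0.037 and 0.125 for same-numbered samples and -0.143 to 0.164 for the others. With 3 arrays per group these cannot settle it. A replicate block gave 3 core, 1 base and 1 class I gene lower. The pair differences ranged over all alternatives from 0.17 to 0.26 (PSMB8 minus PSMB5), -0.20 to -0.15 (PSMB9 minus PSMB6) and 0.08 to 0.19 (PSMB10 minus PSMB7). Differences of about 0.1 lie near or below the limit of 3 arrays per group, where the lowest SE of a component was 0.040. A component not called may therefore still differ. In simulated data with 200 changed genes, fewer than were called here, 14.6% of differences of 0.2 and 82.3% of 0.5 were recovered.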
